A study of Mus musculus with 6 samples.

Results

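The Schlafen family of the mouse was followed in CD4+YFP+ T cells through every probe set whose only gene symbol was Slfn1, Slfn2, Slfn3, Slfn4, Slfn5, Slfn8 or Slfn9. These 7 genes, of 18194 named by a single symbol on the array, were read by 11 of its 45101 probe sets. RNA was taken from CD4+YFP+ T cells of lymph nodes after flow cytometry. Arrays A, B and C of Dicerlox/lox mice (KO) were set against arrays A, B and C of Dicerwt/lox mice (Het), 3 in each group. Mice of both groups carried the FoxP3-GFP-hCre and ROSA26R-YFP alleles, so the controls expressed Cre as well and held 1 lox copy of Dicer, and YFP marks cells in which Cre, driven by the regulatory T cell gene Foxp3, has acted. Cre deletes the floxed part of the gene of Dicer, the enzyme that makes mature microRNAs. The ages of the mice are not given in the labels, and the arrays of a group are described as triplicates without saying whether they are separate animals. The p-values therefore rest on the spread of these arrays alone, and that spread may be technical.

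Schlafen genes take their name from the German word for sleep, after early work in mouse thymocytes in which Slfn1 slowed cell growth. They are induced by type I interferon, and a mutation of Slfn2 in mice (elektra) leaves T cells unable to hold the resting state. The short members Slfn1 and Slfn2 and the intermediate Slfn3 and Slfn4 lack the helicase-like part that the long members Slfn5, Slfn8 and Slfn9 carry.

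The family lies in 1 cluster on chromosome 11. In the reference gene table (GRCm38.p6) the members run from Slfn5 at the low end, through Slfn9, Slfn8, Slfn2, Slfn1 and Slfn4, to Slfn3, over chr11:82951349-83215154, a span of 264 kb. The pseudogene Slfn10-ps sits between Slfn8 and Slfn2. The promoters of 6 members are shown because the array levels below differ among these genes and a reader may want to see what their start regions share. Each runs from 250 bases before to 50 bases after the annotated start, was taken from RefSeq (GRCm38.p6) and is written 5′ to 3′ along the gene's own strand. Capitals mark matches to the interferon response core (GAAA, any 2 bases, GAAA), read on both strands, and to the run ACTTCCTGG or its reverse complement, which is the longest run of letters common to the promoters of Slfn1, Slfn2, Slfn3 and Slfn4. No match to one overlapped a match to the other. The start listed for the Slfn5 promoter lies 753 bases, and that for Slfn4 14 bases, inside the gene as the reference gene table places it, while those of the other 5 members match the table.
Slfn1 (chr11:83116570-83116869, plus strand): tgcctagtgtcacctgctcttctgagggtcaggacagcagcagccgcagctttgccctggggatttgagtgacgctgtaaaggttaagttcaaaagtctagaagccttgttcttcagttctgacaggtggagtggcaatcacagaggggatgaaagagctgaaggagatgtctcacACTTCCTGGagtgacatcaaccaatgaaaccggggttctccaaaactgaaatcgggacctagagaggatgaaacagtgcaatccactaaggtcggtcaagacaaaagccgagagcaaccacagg
Slfn2 (chr11:83064862-83065161, plus strand): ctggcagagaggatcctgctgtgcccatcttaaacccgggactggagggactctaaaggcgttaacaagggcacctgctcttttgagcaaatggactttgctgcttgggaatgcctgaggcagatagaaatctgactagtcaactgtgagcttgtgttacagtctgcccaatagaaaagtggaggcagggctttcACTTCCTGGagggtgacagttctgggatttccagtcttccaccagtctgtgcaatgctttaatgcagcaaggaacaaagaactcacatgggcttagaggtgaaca
Slfn4 (chr11:83174936-83175235, plus strand): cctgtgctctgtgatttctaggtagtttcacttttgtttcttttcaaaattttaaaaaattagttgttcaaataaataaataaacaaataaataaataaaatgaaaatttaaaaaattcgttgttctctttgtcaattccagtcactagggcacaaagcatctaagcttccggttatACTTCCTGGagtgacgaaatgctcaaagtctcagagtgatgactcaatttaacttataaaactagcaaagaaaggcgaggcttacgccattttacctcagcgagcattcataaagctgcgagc
Slfn5 (chr11:82951852-82952151, plus strand): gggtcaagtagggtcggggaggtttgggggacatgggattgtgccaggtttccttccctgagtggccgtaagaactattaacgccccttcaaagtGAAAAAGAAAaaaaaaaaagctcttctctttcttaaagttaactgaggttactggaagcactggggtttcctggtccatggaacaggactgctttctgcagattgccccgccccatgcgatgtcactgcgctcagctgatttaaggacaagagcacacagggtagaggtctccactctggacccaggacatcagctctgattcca
Slfn8 (chr11:83020761-83021060, minus strand): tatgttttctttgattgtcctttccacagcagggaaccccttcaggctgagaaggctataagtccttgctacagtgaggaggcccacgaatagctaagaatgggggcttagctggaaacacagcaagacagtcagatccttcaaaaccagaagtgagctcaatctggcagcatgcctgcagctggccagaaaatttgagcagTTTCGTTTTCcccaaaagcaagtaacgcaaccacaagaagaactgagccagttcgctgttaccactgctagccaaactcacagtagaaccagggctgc
Slfn9 (chr11:82991781-82992080, minus strand): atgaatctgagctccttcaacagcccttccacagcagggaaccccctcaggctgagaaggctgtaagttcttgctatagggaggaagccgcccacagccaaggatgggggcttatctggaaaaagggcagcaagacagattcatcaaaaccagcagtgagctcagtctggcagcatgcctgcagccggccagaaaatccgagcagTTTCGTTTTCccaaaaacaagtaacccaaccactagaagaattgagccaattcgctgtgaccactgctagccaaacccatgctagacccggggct

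The interferon response core was found in the promoters of the 3 long members Slfn5, Slfn8 and Slfn9 and in none of the other 4, against 3.49% of 27025 promoters of the same length. The run ACTTCCTGG, which the choice of these promoters fixed, stood once in each of Slfn1, Slfn2, Slfn3 and Slfn4 and in 0.888% of all promoters. The promoters of Slfn8 and Slfn9 were the most alike, with 252 of 288 aligned bases identical (87.5%), while the other 20 pairs of members had 65.4% to 81.3% in the same gapped alignment. The core matches of Slfn8 and Slfn9 have the same letters, TTTCGTTTTC, so in promoters this alike they are not separate cases. A letter match is a description of the sequence and does not show that a factor binds there.

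No Schlafen probe set passed the test of KO against Het. Of the 11 probe sets, 9 from 6 genes had a log2 value above 4 (an intensity above 16) on at least 3 of the 6 arrays and were tested, and the probe set of Slfn3 and the third probe set of Slfn5 were not. By limma 0 of these 9 had an adjusted p under 0.05, and 3 had an unadjusted p under 0.05 (2 higher, 1 lower). Across the array 1.78% of the 29507 tested probe sets passed at the adjusted threshold, 1.11% higher and 0.668% lower in KO, and 19.1% had an unadjusted p under 0.05. The 3 were the main probe sets of Slfn1 and Slfn4, which read higher on every KO array than on any Het array, and 1 probe set of Slfn5, which read lower. Groups that do not overlap were found for 26.2% of all tested probe sets, so 3 of 9 is near that background. The median log2 difference, KO minus Het, was -0.01 over the 9 and -0.03 over all tested probe sets, and the median size of the difference was 0.17 and 0.18.

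**Figure D1:**
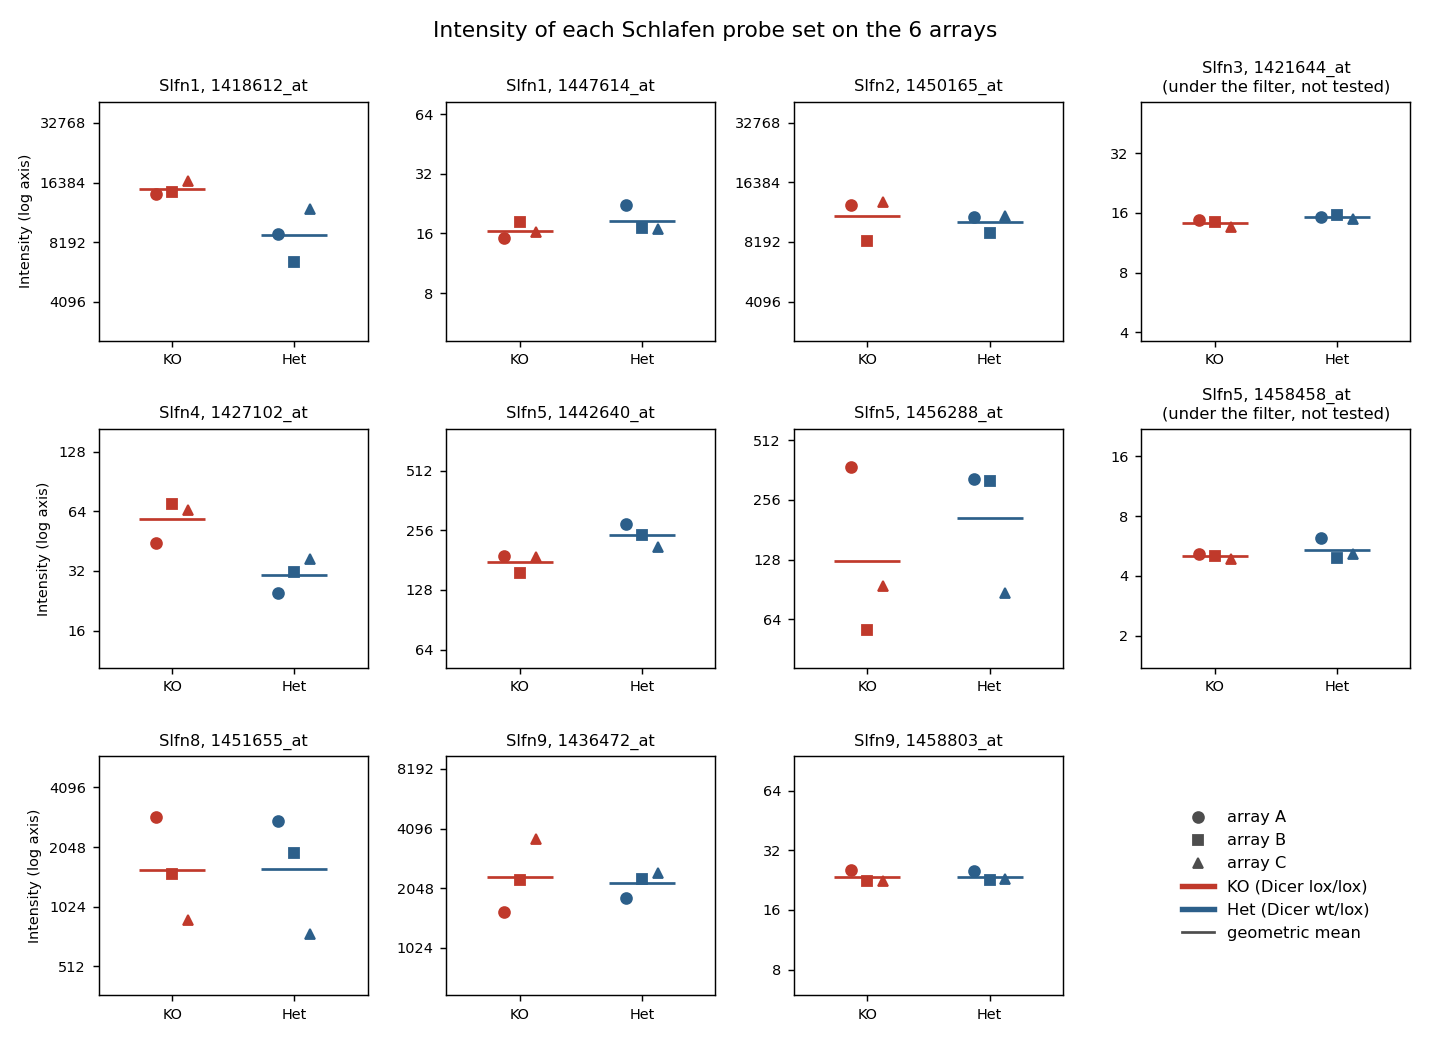
Intensity (log axis, each panel spanning the same number of doublings) of each of the 11 Schlafen probe sets, KO arrays at the left and Het arrays at the right, with bars at the geometric mean of 3 arrays. Slfn1 (1418612_at) and Slfn4 lie higher on all KO arrays and Slfn5 (1442640_at) lower, while Slfn8 and Slfn5 (1456288_at) spread widely within each group.

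Among the short members, Slfn1, the founding member of the family, read 14300, 14650 and 16790 on the KO arrays A, B and C, against 8974, 6529 and 12079 on the Het arrays A, B and C. All KO arrays lay above all Het arrays, and the KO arrays lay closer together than the Het arrays. The log2 difference was 0.77 ± 0.23 (SE, n = 3 each), a 1.71-fold difference with a 95% confidence interval of 0.19 to 1.35 on the log2 scale, and it did not pass the test (limma, adjusted p = 0.163). A second Slfn1 probe set, 1447614_at, lay below the array's median of all probe sets on all 6 arrays, read 15.2 to 18.2 in KO and 16.8 to 22.3 in Het, and gave log2 -0.17 (limma, adjusted p = 0.584).

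Slfn2, the member needed for T cell rest in mice, read 12511, 8298 and 13097 in KO and 10938, 9095 and 11105 in Het. The groups overlapped, and array B was the lowest of each. The log2 difference was 0.10 ± 0.20 (SE, n = 3 each; limma, adjusted p = 0.832), and its 95% interval of -0.40 to 0.60 covers differences in either direction. The ratio of Slfn1 to Slfn2 within an array, which shows unequal change rather than which gene moved, was 1.14, 1.77 and 1.28 in KO and 0.820, 0.718 and 1.09 in Het. The ratio was higher on every KO array, with p = 0.1 in a two-sided exact permutation test, the smallest that 3 arrays against 3 allow. It was chosen after its values were seen, and Slfn1 alone already separated the groups, so this p-value adds no support.

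Of the intermediate members, Slfn4, known in mice from macrophages and other myeloid cells, read 44.1, 69.6 and 65 in KO and 24.9, 31.7 and 36.7 in Het. Every KO array was above every Het array, although these intensities were close to the median of the array, 58.1 to 61.5, and 4 of the 6 arrays lay below it. The log2 difference was 0.93 ± 0.23 (SE, n = 3 each; 1.90-fold), the smallest adjusted p of the family at 0.112 (limma). It stood at 1.13 without KO A and 0.78 without Het A. The only other probe set that reads this gene, 1450322_s_at, is shared with Slfn3 and was not a member by the rule. It read 36.4, 33.8 and 35.8 in KO and 37.5, 29.7 and 34.4 in Het, a log2 difference of 0.07 (limma, adjusted p = 0.792). The 2 probe sets did not give the same difference for Slfn4. However, 1450322_s_at lay below the median of the array on all 6 arrays, which limits what it shows. Slfn3 itself read 14.7, 14.4 and 13.6 in KO and 15.3, 15.6 and 14.9 in Het, below the filter on all 6 arrays, a log2 difference of -0.10 that was not tested.

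Markers of myeloid cells and of other cell types are given beside Slfn4, a gene known from such cells. The summed intensity of 10 myeloid markers was 697, 2455 and 1091 in KO A, B and C and 551, 1090 and 604 in Het A, B and C. Among them Lyz2, the lysozyme of myeloid cells, read 232, 1408 and 441 in KO and 50.6, 381 and 97.4 in Het, a log2 difference of 2.09. Of the 7 myeloid markers that were tested, 6 had a positive difference and 1 a negative one. Cd68 read 84.1, 231 and 186 in KO and 37.7, 28.35 and 64.0 in Het, a log2 difference of 1.91, and Clec7a gave log2 1.16. Both were higher on every KO array than on any Het array. Cybb, a subunit of the phagocyte oxidase, went the other way with 82.0, 223 and 114 in KO and 167, 397 and 145 in Het (log2 -0.74). Lyz2, Cd68, Clec7a and Cybb did not pass (limma, adjusted p = 0.318, 0.113, 0.290 and 0.515). Itgam, Cd14 and S100a9 lay below the median of the array on all 6 arrays. The B array had the highest myeloid sum of its group in both genotypes, and Slfn4 was highest on B in KO but not in Het. The part of these cells in the Slfn4 values was not tested. Without both B arrays the log2 difference of Slfn4 was 0.83 (limma, adjusted p = 0.304).

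Of the long members, Slfn5 was read by 3 probe sets that did not behave alike. On 1442640_at it read 190, 156 and 187 in KO and 276, 242 and 211 in Het. All KO arrays lay below all Het arrays, with a log2 difference of -0.45 ± 0.14 (SE, n = 3 each), or 0.733-fold, that did not pass (limma, adjusted p = 0.169). On 1456288_at it read 375, 56.8 and 94.4 in KO and 327, 320 and 86.5 in Het. Here 1 KO array and 2 Het arrays were high, the other 3 were low, and the groups overlapped. The log2 difference of -0.72 ± 0.87 (SE; limma, adjusted p = 0.706) moved to -1.51 without KO A and to -1.36 without Het C, and to -0.15 without KO B, -0.40 without Het A and -0.41 without Het B. It turned to 0.16 without both B arrays. The third, 1458458_at, stayed at 4.89 to 5.13 in KO and 4.93 to 6.20 in Het, below the filter on all arrays.

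Slfn8 read 2916, 1490 and 877 in KO A, B and C and 2787, 1905 and 742 in Het A, B and C. Array A was the highest and array C the lowest in each group, and the group means differed by a log2 of -0.02 ± 0.64 (SE, n = 3 each; limma, adjusted p = 0.993). The 95% interval of -1.60 to 1.57 includes 2-fold differences in either direction, so a difference of that size was not detectable with these arrays. The range of Slfn8 over the 6 arrays was 3.93-fold, wider than that of 93.2% of tested probe sets.

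Slfn9, whose promoter is the nearest relative of that of Slfn8, read 1561, 2262 and 3608 in KO A, B and C and 1836, 2272 and 2444 in Het A, B and C. Its lowest array was A and its highest C in each group, the reverse of Slfn8, and the log2 difference between the groups was 0.11 ± 0.32 (SE; limma, adjusted p = 0.885). The ratio of Slfn9 to Slfn8 was 0.535, 1.52 and 4.11 in KO A, B and C and 0.659, 1.19 and 3.29 in Het A, B and C. The ratio was lowest on A and highest on C in each group, and the groups overlapped (two-sided exact permutation test, p = 0.8). A dim second probe set of Slfn9, 1458803_at, read 22.3 to 25.5 in KO and 22.5 to 25.2 in Het (log2 -0.01; limma, adjusted p = 0.963). Which transcripts the probes of Slfn8 and Slfn9 can bind was not tested, since no probe sequences were used here.

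**Figure D2:**
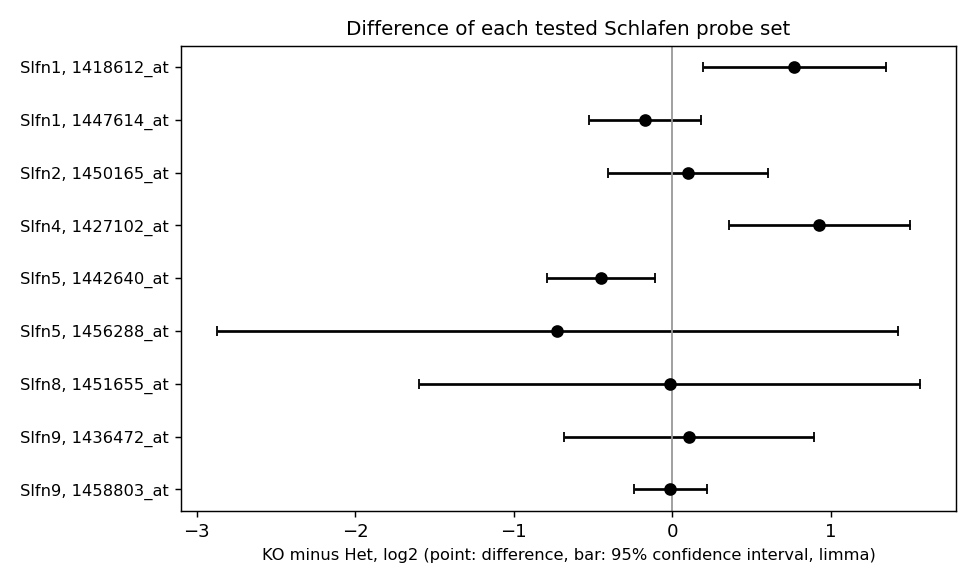
Difference of each of the 9 tested Schlafen probe sets, KO minus Het on the log2 scale (point), with the 95% confidence interval from limma (bar). The intervals of Slfn1 (1418612_at), Slfn4 and Slfn5 (1442640_at) do not reach 0 but none of the 9 passed after adjustment over all 29507 probe sets.

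The spread of the long members was set beside the pseudogene between them. Slfn10-ps, no member but a neighbour of Slfn8, read 1255, 798 and 395 in KO A, B and C and 2774, 1443 and 812 in Het A, B and C. The A array was again the highest and the C array the lowest of each group. The log2 difference of Slfn10-ps was -1.01 ± 0.59 (SE, n = 3 each; limma, adjusted p = 0.428). After the group means were taken out, its levels and those of Slfn8 correlated at r = 0.97 over the 6 arrays. Over the levels themselves Pearson's r was 0.79 (exact permutation p = 0.0611, and 0.70 without the 2 arrays farthest from the median of Slfn8) and Spearman's rho was 0.66 (exact permutation p = 0.175). The ratio of Slfn8 to Slfn10-ps was 2.32, 1.87 and 2.22 on the KO arrays and 1.0, 1.32 and 0.914 on the Het arrays. Each KO array had a higher ratio than each Het array (exact permutation test, p = 0.1, the smallest possible). This ratio and the other ratios were chosen after their values were seen.

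Levels of the 6 measured members were compared in 15 pairs over the 6 arrays, with 1 probe set a gene, and no pair passed on Pearson's r after adjustment. Slfn8 and Slfn9 gave r = -0.83 (exact permutation p = 0.0389, adjusted over the 15 pairs p = 0.245) and rho = -0.89 (exact permutation p = 0.0333, adjusted p = 0.125). Without the 2 arrays farthest from the median of Slfn8 that r was -0.90. By rank 1 pair passed, Slfn4 with Slfn5 (rho = -1.0, exact permutation p = 0.00278, adjusted p = 0.0417). The KO and Het arrays form separate clusters for both genes, so this rank order holds the genotype difference, and with the group means taken out r was -0.81. The same separation holds for Slfn1, and no other correlation is given among these 3.

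**Figure D3:**
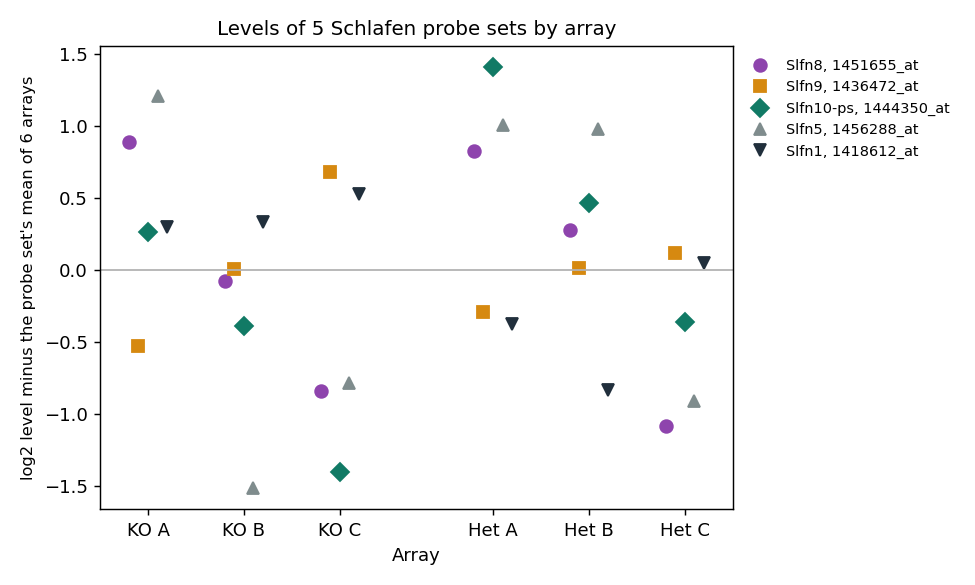
Level of 5 Schlafen probe sets on each array, as log2 minus the probe set's own mean over the 6 arrays, KO arrays at the left and Het arrays at the right. Slfn8 and Slfn10-ps are highest on the A array and lowest on the C array of each group, Slfn9 the reverse, and Slfn1 is higher on all KO arrays.

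Genes that surround the cluster were measured in the same fit. Of 55 neighbours within 500 kb of the outermost members, 17 were measured and 0 passed by limma, while 2 had an unadjusted p under 0.05, both higher in KO, against 22.3% of all genes. Across the array 2.33% of genes passed. On the Slfn5 side Zfp830, Lig3, Rffl, Rad51d, Fndc8 and Nle1 had log2 differences of -0.41 to 0.10. Next to Slfn3, AI662270, Ap2b1, Rasl10b and Taf15 had log2 differences of -0.89 to -0.05, while other Ap2b1 probe sets gave -0.12 and 0.28. Taf15 read 649, 112 and 16.8 in KO and 495, 598 and 26.5 in Het. Beyond them lie CC chemokine genes, whose differences were larger and varied more between arrays than those on the Slfn5 side. Ccl5, the gene of the T cell chemokine RANTES, read 3919, 10152 and 874 in KO and 292, 958 and 670 in Het. The groups overlapped, since Het B read higher than KO C, and the log2 difference of 2.51 ± 0.96 (SE, n = 3 each) did not pass (limma, adjusted p = 0.244). Wfdc17 read 42.4, 391 and 210 in KO and 38.5, 36.4 and 39.0 in Het (log2 2.0; limma, adjusted p = 0.260), so 2 of 3 KO arrays stood well above the rest.

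**Figure D4:**
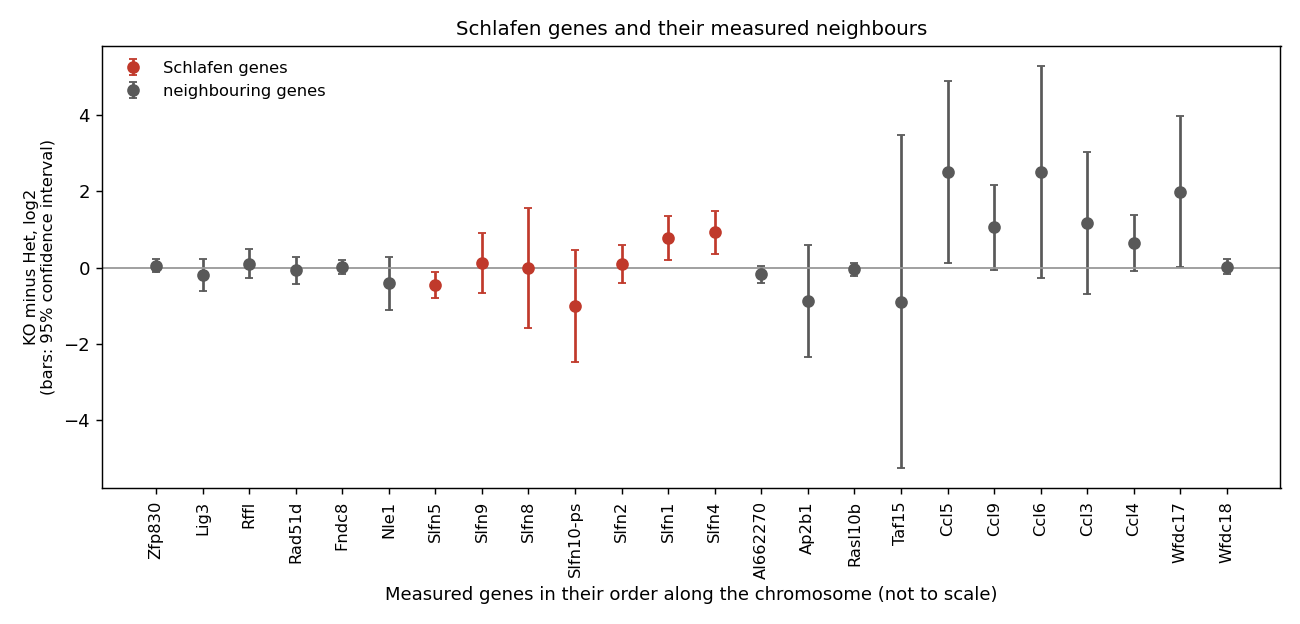
Log2 difference, KO minus Het, with its 95% confidence interval for the Schlafen genes and their measured neighbours, 1 probe set a gene, in their order along chromosome 11 and not to scale. The genes on the Slfn5 side lie between -0.41 and 0.10. AI662270, Ap2b1, Rasl10b and Taf15 lie between -0.89 and -0.05, and the CC chemokine genes at the other end lie between 0.65 and 2.51 with wide intervals.

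Single genes of the interferon pathway, which induces the family, passed the test. Type I interferon binds a receptor that signals through JAK kinases and STAT factors to genes such as those listed here. Of 10 measured receptor, kinase and factor genes upstream, Irf1, a transcription factor induced by interferon gamma, rose, 0 fell and 9 did not pass with 1 probe set a gene, against a background of 1.37% of genes higher and 0.956% lower. Irf1 read 8211, 9232 and 11213 in KO and 3500, 4885 and 4051 in Het (log2 1.21 ± 0.17, SE, n = 3 each; limma, adjusted p = 0.0424). The median log2 difference of these genes was 0.36, and that of all genes was -0.03. The receptor chain gene Ifnar2 had 3 probe sets that did not give the same direction. The brightest, which stood for the gene, read 3162, 3155 and 3112 in KO and 4091, 4089 and 3791 in Het, log2 -0.34, and did not pass (limma, adjusted p = 0.0836). Another, 1451462_a_at, read 2069, 2067 and 2480 in KO and 1372, 1213 and 1354 in Het, and its log2 difference of 0.74 passed (limma, adjusted p = 0.0429), though with any 1 array left out it did not (adjusted p = 0.0860 to 0.134). The third gave log2 -0.41 (limma, adjusted p = 0.0772), so no direction is given for Ifnar2. The call of Irf1 was lost without any 1 of the 6 arrays and without the filter on dim probe sets.

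Of 28 measured type I interferon stimulated genes, Isg20, Zbp1 and Samhd1 rose, 0 fell and 25 did not pass. By the same test 1.37% of all genes were higher and 0.956% lower. Of the 28 genes of the list, 26 had a positive difference. The groups of 13 of them did not overlap, against 29.9% of all genes. Isg20, an RNA exonuclease, read 4605, 4275 and 4419 in KO and 1343, 875 and 1545 in Het (log2 1.86; limma, adjusted p = 0.0277). Zbp1, a sensor of Z-form nucleic acids, read 4024, 4103 and 6122 in KO and 1877, 1742 and 1907 in Het (log2 1.34; limma, adjusted p = 0.0377). Samhd1, which breaks down deoxynucleotides, read 16458, 16566 and 16563 in KO and 12465, 11861 and 12326 in Het (log2 0.44; limma, adjusted p = 0.0489), while 4 further Samhd1 probe sets gave 0.11 to 0.33 and did not pass. The median log2 difference of the list was 0.60, against -0.03 over all genes, and without any 1 of the 6 arrays 0 of its genes passed.

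The genes whose array pattern was most like that of Slfn1 were sought over the 6 arrays among 13274 genes. The 5 with the highest Pearson r on the log2 scale were Ifi35, an interferon-induced protein (0.99), the kinase gene Cdk8 (0.99), the tankyrase gene Tnks2 (0.99), Ttc30b (0.98) and Erp29, of the endoplasmic reticulum (0.98). Spearman's rho was 0.94 to 1.0 for them, and r without the 2 arrays farthest from the median of Slfn1 was 0.94 to 0.99. After adjustment over all genes no correlation with Slfn1 passed (exact permutation test over 720 orders, smallest adjusted p = 0.249), and the groups of Slfn1 do not overlap, so r holds the genotype difference too. Ifi35 read 21824, 21733 and 23495 in KO and 17649, 16379 and 20029 in Het (log2 0.31; limma, adjusted p = 0.184), with array C the highest and array B the lowest of each group.

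The type I interferon stimulated genes were also set against Slfn1, a comparison made after the list of the 5 was seen. Their median r with Slfn1 was 0.86, against -0.01 over all genes, and 18 of the 28 (64.3%) were among the 1000 genes most like Slfn1, which are 7.53% of all. Trim30a and Rtp4 stood at ranks 6 and 8, with r of 0.98 each. At the other end Eif2ak2, the kinase PKR, had r = 0.08 and Mx2 0.18. With the group means taken out, the median r was 0.87 for the list and 0.19 over all genes, and 26 of the 28 were positive, against 64.2% of all genes. These are descriptions over 6 arrays, in which genes of 1 pathway are not independent of each other.

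**Figure D5:**
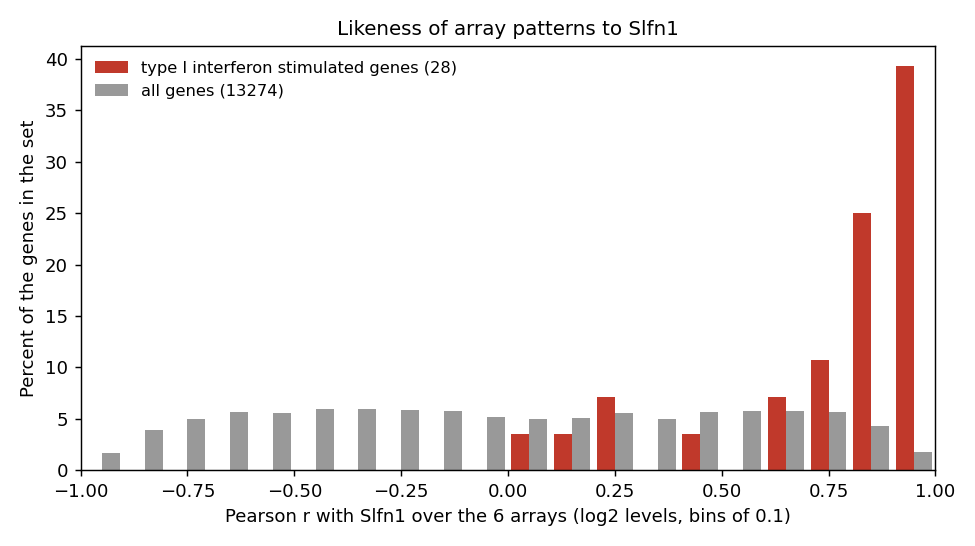
Pearson r with Slfn1 over the 6 arrays on the log2 scale, in bins of 0.1, as a percent of the 28 type I interferon stimulated genes (red) and of all 13274 genes (grey). The list's median is 0.86, and that of all genes is -0.01.

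T cell quiescence factors were measured because Slfn2 is known for holding T cells at rest. Across the array 2.33% of genes passed and 22.3% had an unadjusted p under 0.05. Of 20 measured factors 0 passed by limma, while unadjusted p-values under 0.05 were found for 4, of which 1 was higher and 3 were lower. The list had a median log2 difference of -0.09. Foxo1, a factor that keeps T cells resting, read 6006, 5824 and 6155 in KO and 7834, 8763 and 7991 in Het (log2 -0.45 ± 0.08, SE, n = 3 each; limma, adjusted p = 0.0605). Ndrg1 read 930, 872 and 662 in KO and 1814, 1339 and 1886 in Het (log2 -1.03; limma, adjusted p = 0.0664). In both genes all KO arrays lay below all Het arrays. Of 11 proliferation genes 0 passed by limma, although all 11 differences were positive, with a median of 1.61, and 7 had an unadjusted p under 0.05. The array Het A stood apart: the mean log2 level of these genes was 12.6, 13.1 and 12.6 in KO A, B and C and 10.2, 12.1 and 11.8 in Het A, B and C. Without Het A the median difference was 0.93, with all 11 still positive. Ccnb2, the gene of cyclin B2, gave log2 1.61 (limma, adjusted p = 0.166) and Pcna, the sliding clamp of DNA replication, 0.48 (limma, adjusted p = 0.184).

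Genes that cut or protect transfer RNA were included because mouse SLFN2 shields transfer RNA from the nuclease angiogenin. Of 9 measured genes 0 passed by limma, against 2.33% of all genes. An unadjusted p under 0.05 was found for 4, of which 3 were higher and 1 was lower, against 22.3% of all genes. The list had a median log2 difference of 0.09. Rnh1, the ribonuclease inhibitor that binds angiogenin, read 2842, 3477 and 3299 in KO and 2113, 2235 and 2214 in Het (log2 0.55; limma, adjusted p = 0.0637). Tsen34, a subunit of the transfer RNA splicing endonuclease, gave log2 0.50 (limma, adjusted p = 0.101). Ang, the angiogenin gene itself, read 77.4, 44.5 and 49.2 in KO and 81.7, 138 and 128 in Het (log2 -1.03; limma, adjusted p = 0.146), and was named after its values were seen.

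The arrays themselves were alike in scale and all read T cell markers, which do not check the sort on YFP. Median intensities were 58.1 to 61.5, and arrays of the same group correlated at r = 0.989 to 0.993 on the log2 scale, those of different groups at 0.982 to 0.990. Summed intensities of 8 T cell and sort markers ranged from 135644 to 145394 in KO and from 134196 to 144820 in Het. Their members differed in direction: Ctla4 and Il2ra were higher on all KO arrays (log2 0.76 and 0.67), and Cd3g, Cd3d and Ikzf2 were lower on all KO arrays (log2 -0.17, -0.23 and -0.24), but none of these 5 passed (limma, adjusted p = 0.0686 to 0.342). Foxp3 read 5453, 9417 and 5420 in KO and 9960, 8945 and 9769 in Het (log2 -0.55; limma, adjusted p = 0.285), and Cd4 gave log2 0.12 (adjusted p = 0.692). The Dicer1 probe sets gave log2 -0.03 and -0.52 (limma, adjusted p = 0.891 and 0.145), but the position of these probes in the gene was not looked at, so they do not check the labels. Sums of 7 B cell markers were 2019, 5169 and 2171 in KO A, B and C and 1160, 2823 and 1215 in Het A, B and C. Those of 6 CD8 T cell and NK cell markers were 835, 6611 and 887 in KO and 1045, 2888 and 800 in Het, and those of 4 plasma cell markers 545, 3654 and 3057 in KO and 157, 333 and 157 in Het. Array B thus stood highest for all 3 in each group. The lowest markers were Pax5, Ncr1 and Tnfrsf17, each below the median of the array on all 6 arrays. The part of these cells in the Schlafen values was not tested, and in bulk RNA fewer cells of a type cannot be told apart from less RNA per cell. Without both B arrays Slfn1 gave log2 0.57 and Slfn5 (1442640_at) -0.36, with adjusted p = 0.285 and 0.384 (limma).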

How the data were processed

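Total RNA of sorted CD4+YFP+ T cells was, per the labels' protocols, extracted with TRIzol, amplified with a MessageAmp II kit and labelled with biotin. The values are probe set intensities deposited by the authors, normalized with GCRMA per the labels. They ran from 1.23 to 170023 and were taken as linear. The version of GCRMA is not known here, and its background step can change the fold differences of dim probe sets. No detection calls were used.

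Of 45101 probe sets, 64 controls and 1 probe set lacking values were dropped. The 29507 whose log2 value exceeded 4 on 3 or more of the 6 arrays were tested. Names came from the platform annotation: 34958 probe sets had 1 symbol, 932 several and 9211 none. Of 13280 tested genes 13215 matched the reference table (GRCm38.p6) by identifier. The probe set with the highest mean stood for a gene in lists. The test of KO against Het was limma 3.58.1 (R 4.3.3) with lmFit and eBayes, a two-sided fit without covariates. Its p-values were adjusted by Benjamini-Hochberg across every tested probe set, and the threshold was 0.05. The steps were tested on simulated data.

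The members, gene lists and alternatives were chosen with earlier results of these data known. Named genes are all member probe sets, other Slfn symbols, Dicer1, Foxp3 and Cd4, up to 4 called members of each list or the 2 with the smallest p, and the 5 genes most like the brightest member. Further neighbours, list members and markers were named after their values were seen. Slfn5os and Slfnl1 lay below the filter. Promoters came from RefSeq, 1 a gene with the farthest upstream of the starts its promoter table lists, and were aligned with Biopython 1.88. Letters A, B and C were not treated as pairs: deviations from group means correlated at 0.26 for A, -0.16 for B and 0.01 for C. Alternatives were a replicate block, other filters and scalings, an offset, other variance models, array weights and left-out arrays.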

Additional observations from a re-analysis of the deposited data

How the results depend on the processing

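In all 15 alternatives 0 Schlafen probe sets passed, and of 134 values for single probe sets 119 kept their direction and none passed (smallest adjusted p = 0.0937, limma). Slfn1 (1418612_at), Slfn4 and Slfn5 (1442640_at) kept their direction in every alternative that tested them. Differences near 0, or with wide intervals, turned sign: Slfn9 (1458803_at) gave 0.011 under quantile normalization and 0.0081 under median centring, Slfn8 gave 0.0026 under median centring and 0.15 without both B arrays, and Slfn5 (1456288_at) gave 0.16 without both B arrays. With 1 array left out, Slfn2 ranged from -0.021 to 0.31, Slfn8 from -0.56 to 0.40, Slfn9 (1436472_at) from -0.21 to 0.40 and Slfn9 (1458803_at) from -0.072 to 0.038.

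Calls over all probe sets, 525 on 6 arrays, were 957 with array weights, 0 with a replicate block, 0 without both B arrays and 0 to 176 with 1 array left out (limma; 6456, 5365, 5274 and 4227 to 5454 at an unadjusted p under 0.05). Of the interferon stimulated genes (3 called) and the upstream genes (1 called), 0 passed with a replicate block, without both B arrays or with any 1 array left out, and 0 upstream genes passed without a filter. Quiescence factors gave 1 call under quantile normalization, 1 with 16 added before log2, 1 with an intensity trend and 2 with array weights. The transfer RNA genes gave 1 with array weights and 1 where probe sets were averaged per gene, and the neighbours 2 without KO A and 0 without any other array. The cause of these changes was not tested, beyond that leaving out arrays leaves fewer samples. The low intensities of Slfn3, Slfn4 and the second Slfn1 and Slfn9 probe sets limit what these arrays show of them.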
